A study of Mus musculus with 7 samples.

Results

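The heat shock chaperones described here are 10 genes chosen by symbol, Hspa1a, Hspa1b, Hspa8, Hsp90aa1, Hsp90ab1, Hsph1, Dnajb1, Dnaja1, Hspe1 and Hspd1, among the 19589 genes measured. RNA of CD4+ cells sorted from mouse spleen was sequenced in 3 RT libraries (RT1 to RT3) and 4 WT libraries (WT1 to WT4), 1 per C57BL/6 mouse. RT mice had the genotype Tet2-/-G17VRHOA, the loss of a dioxygenase that oxidises methylated DNA together with a mutant of the small GTPase RHOA, and WT mice had neither change. The sources used here do not give the age of the mice, the way the Tet2 alleles were made, or the promoter and cells that drive G17V RHOA. The comparison asked how the CD4+ cells of the mutant differ in transcript levels from those of WT.

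Chaperones of this class hold unfolded protein and help it to fold. HSP70 proteins bind exposed stretches of a client in a cycle of ATP hydrolysis that J-domain proteins start and HSP110 proteins reset, and HSP90 proteins take over clients such as kinases, among them the T cell kinase LCK. HSP60 and HSP10 form a folding chamber inside mitochondria. Heat and other proteotoxic stress switch on the inducible members through the factor HSF1, which binds heat shock elements made of inverted repeats of GAA, whereas Hspa8 and Hsp90ab1 are the constitutive forms.

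The start regions of the inducible HSP70 genes are shown because these genes had the largest estimated differences, and the shorter stretches because they hold the same kind of repeat in front of other members. Sequences are from RefSeq on GRCm38.p6, written 5′ to 3′ on the strand of the gene, and capitals mark GAANNTTC or TTCNNGAA, each of which reads the same on the opposite strand. Hspa1a and Hspa1b both lie on the minus strand, their windows are the 250 bases before the start at chr17:34972157-34972406 and chr17:34959239-34959488, and both capitals begin 104 bases before it.
Hspa1a: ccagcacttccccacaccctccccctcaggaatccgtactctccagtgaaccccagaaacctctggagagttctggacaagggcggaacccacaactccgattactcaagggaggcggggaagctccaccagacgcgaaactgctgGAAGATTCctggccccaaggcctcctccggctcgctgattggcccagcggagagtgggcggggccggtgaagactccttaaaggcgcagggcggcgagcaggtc
Hspa1b: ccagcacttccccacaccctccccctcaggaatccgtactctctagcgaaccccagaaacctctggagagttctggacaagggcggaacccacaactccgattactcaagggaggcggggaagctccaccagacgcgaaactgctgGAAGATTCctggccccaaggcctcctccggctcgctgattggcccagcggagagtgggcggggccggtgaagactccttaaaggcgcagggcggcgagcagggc
The 2 windows, extended to 50 bases after the start, differed at 4 of 300 bases. The 30-base stretches of Hsph1 (chr5:149636352-149636381, minus strand), Dnaja1 (chr4:40722332-40722361, plus strand) and Hspe1 (chr1:55088052-55088081, plus strand) hold their capitals 33, 124 and 89 bases before the RefSeq starts, and in Hspe1 overlapping copies run on as 1 stretch.
Hsph1: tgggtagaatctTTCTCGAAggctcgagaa
Dnaja1: aaaaagcctctaGAAAATTCtacgaggctc
Hspe1: cggtccgTTCTAGAACCTTCCGGAAggccc

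Start windows were matched for 7 of the 10 genes, with 12 windows in all, each from 250 bases before a start to 50 after it. Either 8-letter repeat occurred in 7 of these 12 windows, from 6 genes, and in 15.1% of all 32851 windows. GAANNTTC alone was in 7.86% of all windows and TTCNNGAA alone in 8.52%. The longer GAANNTTCNNGAA or TTCNNGAANNTTC was in 4 of the 12 windows, from Hsph1, Hspe1 and Hspd1, and in 0.603% of all. Neither 8-letter repeat was found in the 2 windows of Dnajb1. Hspe1 (chr1:55088132-55091307, plus strand) and Hspd1 (chr1:55077835-55088243, minus strand) start head to head with overlapping ends in GENCODE M21. The Hspe1 stretch lies inside the Hspd1 gene and also falls in the window of the Hspd1 start at chr1:55087932, so these windows share their matches. The Hspd1 window at the start chr1:55088243 held no match. Neither did the Dnaja1 windows at the starts chr4:40722922 and chr4:40722930. The 2 windows of Hsph1 overlap and hold the same matches, and those of Hspa1a and Hspa1b are near-identical. The window counts therefore do not come from separate sites. These matches are letters in a window and no measure of binding.

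The values are RPKM, which divides reads by the length of the gene and by the library total, and the libraries formed 2 sets of very different depth, each with both genotypes. The total behind the values was 21800352 reads in RT1, 18566233 in WT1 and 20033254 in WT2, called deep, and 105763 to 121659 in RT2, RT3, WT3 and WT4, called shallow. For a gene of 2 kb, 1 read equalled 0.0229 to 0.0269 RPKM at the deep coverage and 4.11 to 4.73 RPKM at the shallow coverage. RPKM sums also differed, at 133044 to 152578 deep and 326187 to 366023 shallow, so levels are given as TPM, the RPKM rescaled to the same sum in every library. RT1 to RT3 had Tet2 values of 5.03, 0.803 and 0 RPKM and WT1 to WT4 had 6.32, 4.68, 2.86 and 2.79 RPKM, and a value over the whole gene does not check a deletion of part of it. The RPKM of Xist, which marks female cells, was 85.2, 36.4 and 0.459 in RT1 to RT3 and 63.0, 35.7, 0 and 0 in WT1 to WT4. The Y-linked Ddx3y was above 0 in RT3, WT3 and WT4 only, so the shallow set holds both sexes and the deep set does not. Cd4 lay at 970 to 2035 reads per 1000000 recovered reads (RPM) in RT and 1008 to 1170 in WT, and no CD4 T cell marker was at 0. CD8 T cell markers summed to 0 to 8.97 RPM in RT and 9.51 to 27.8 in WT.

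The inducible HSP70 genes Hspa1a and Hspa1b had the largest estimated differences, both higher in RT. The constitutive members Hspa8 and Hsp90ab1 did not pass a test on all libraries. In the limma test on log2(RPKM + 1), 0 of the 10 chaperones passed an adjusted p of 0.05 in either direction, beside 0.0416% of 9605 genes higher in RT and 0.0104% lower. At an unadjusted p under 0.05, 3 of the 10 were higher (Hspa1a, Hspa1b and Hsph1) and 0 lower, beside 4.53% and 4.16% of genes. All 10 estimates were positive, beside 50.2% of genes, and their median was 0.80 on the log2 scale, beside 0.00 over all genes. This test has no term for library set, and the other proteostasis genes described below were mostly positive in it too. Rescaling to TPM moved the median of all genes to -0.21, with 39.8% of genes positive, and again left 10 positive estimates and 0 calls among the members. In sorted bulk RNA, a different number of cells of a type and a different amount of RNA per cell cannot be told apart.

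The reads behind the values could be recovered as whole numbers, which lets a test weigh each library by its depth. With a term for library set, limma voom on these reads put Hspa1a above the threshold, 1 of 10 members, beside 9.48% of 5885 genes higher in RT, and 0 of 10 lower, beside 8.22%. At an unadjusted p under 0.05, 2 of 10 were higher, beside 16.2%, and 0 lower, beside 15.5%. Here 9 of the 10 estimates were positive, beside 47.3% of genes, and their median was 0.24 beside -0.03 over all genes. A share of 1 in 10 is close to that of all genes. Deep libraries dominate this fit, and without RT1 it called 0 members and 0 genes in either direction (unadjusted, 2.79% higher and 5.45% lower).

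**Figure D1:**
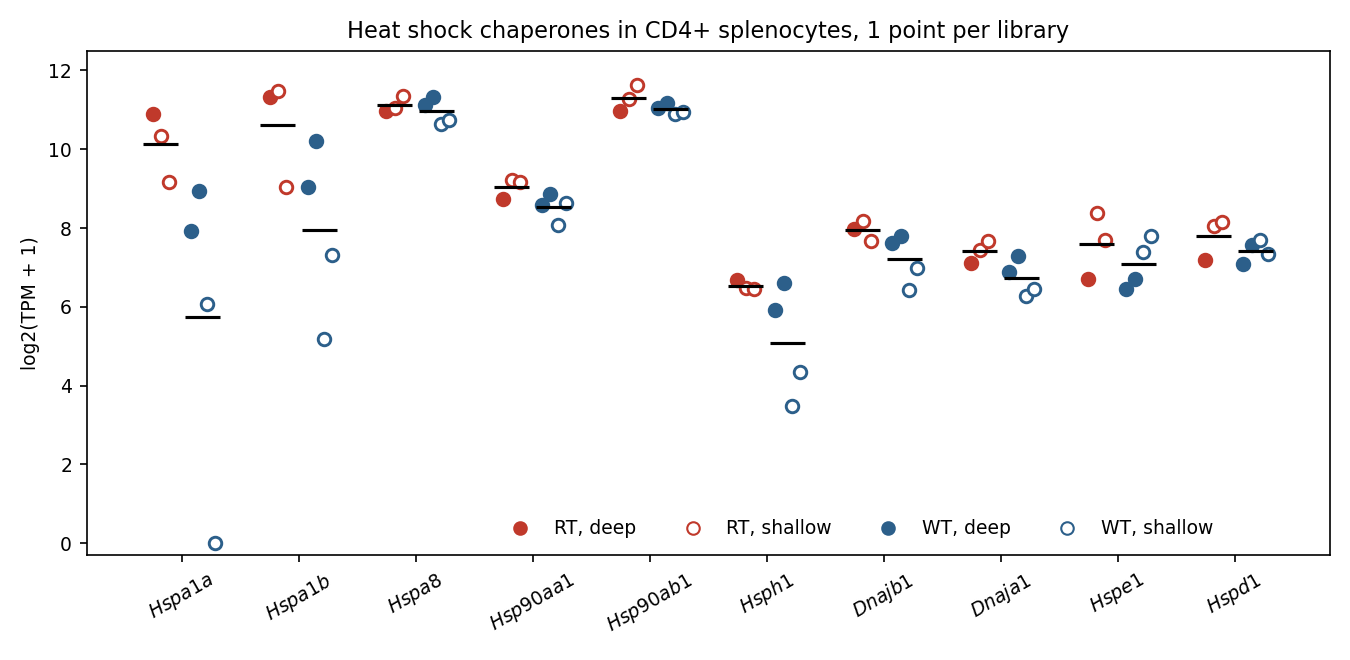
Level of each chaperone as log2(TPM + 1), with 1 point per library, RT left of WT, filled for deep and open for shallow libraries, and a bar at the group mean of the logged values. The RT points of Hspa1a all lie above the WT points, while those of Hspa8 and Hsp90ab1 overlap.

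Hspa1a encodes an inducible HSP70 and had the clearest separation. It was at 1899, 1297 and 578 TPM in RT1 to RT3, against 244, 490.35, 66.4 and 0 TPM in WT1 to WT4. Every RT library thus lay above every WT library, which held for 1 of 10 members and 4.6% of 9605 genes. The means were 1258 ± 662 TPM in RT (SD, n = 3) and 200.2 ± 219 TPM in WT (SD, n = 4). Behind them were 17789, 149 and 68 reads in RT1 to RT3, against 1789, 4447, 8 and 0 in WT1 to WT4. The 0 in WT4 allows up to 27.8 RPM, counting 3 reads as the limit, whereas RT3, the lowest RT library, had 610 RPM from its 68 reads. The log2 fold change was 4.22 ± 1.25 (SE) in the limma test on RPKM, with an adjusted p of 0.336. On the recovered reads Hspa1a rose by 2.58 ± 0.46 with a 95% interval of 1.52 to 3.64 (limma voom adjusted p = 0.00827). Without RT1 the value was 5.65 ± 2.44 and did not pass (limma voom adjusted p = 0.602). The read fit kept genes with 10 or more reads over the shallow libraries, which Hspa1a reached only through RT2 and RT3.

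Hspa1b, the neighbouring gene for a near-identical HSP70, ran alongside. Its levels were 2551, 2857 and 521 TPM in RT1 to RT3, against 524, 1189, 35.2 and 159 TPM in WT1 to WT4. RT3 fell below WT1 and WT2, so the groups overlapped, although within each library set every RT value exceeded every WT value. The means were 1977 ± 1269 TPM in RT (SD, n = 3) and 477 ± 518 TPM in WT (SD, n = 4). The shallow values rested on 310 and 58 reads in RT2 and RT3, against 4 and 19 in WT3 and WT4. The log2 fold change was 2.87 ± 0.92 in the limma test on RPKM (adjusted p = 0.388) and 1.90 ± 0.61 on the recovered reads, where it missed the threshold (limma voom adjusted p = 0.0689, 95% interval 0.49 to 3.30). It passed without RT2, at 1.72 (limma voom adjusted p = 0.0436), and without WT2, at 2.48 (limma voom adjusted p = 0.00864). Without RT1 it was at 3.82 ± 2.10 (limma voom adjusted p = 0.706) and without WT1 at 1.58 (limma voom adjusted p = 0.150). Within WT the deep libraries were the higher ones, and WT2 was highest for both genes.

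How the reads divide between these neighbours is uncertain. Hspa1a (ENSMUSG00000091971.3, chr17:34969190-34972156) and Hspa1b (ENSMUSG00000090877.3, chr17:34956436-34959238) have coding sequences of 1926 and 1929 bases that were 99.4% identical, with 8 differing bases and 3 gap bases in the alignment. Of the 2918 stretches of 50 bases in the Hspa1a transcript, 58.8% occur unchanged in Hspa1b, and 0 occur in Hspa8. The sources used here do not say how reads that match both were counted. Summed as 1 gene, the pair reached 4451, 4154 and 1099 TPM in RT1 to RT3, against 768, 1679.7, 102 and 159 TPM in WT1 to WT4. The summed pair rose by 2.30 ± 0.57 on the log2 scale in the recovered reads (limma voom adjusted p = 0.0283) and did not pass in the RPKM test, at 3.05 ± 0.79 (limma adjusted p = 0.277). This sum was chosen after the data had been seen.

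Hspa8 and Hsp90ab1, the constitutive HSP70 and HSP90, were the most abundant of the other members. Neither passed a test on all libraries, and their estimates on the reads were small. The 95% intervals in the limma test on RPKM were wide, at -1.13 to 1.90 for Hspa8 and -1.15 to 2.16 for Hsp90ab1. Hspa8 was at 2005, 2120.1 and 2613 TPM in RT1 to RT3, against 2244, 2582, 1598 and 1715 TPM in WT1 to WT4. Its log2 fold change was 0.38 ± 0.67 in the limma test on RPKM (adjusted p = 0.907) and 0.05 ± 0.17 on the reads, with a 95% interval of -0.34 to 0.44 (limma voom adjusted p = 0.868). Hsp90ab1 was at 2000.4, 2498 and 3193 TPM in RT1 to RT3, against 2098, 2297, 1906 and 1982 TPM in WT1 to WT4. In both genes RT1 was the lowest RT library and lay below both deep WT libraries, while RT2 and RT3 lay above both shallow ones. The log2 fold change of Hsp90ab1 was 0.51 ± 0.74 in the limma test on RPKM (adjusted p = 0.879) and 0.13 ± 0.15 on the reads (limma voom adjusted p = 0.598). The 95% interval on the reads, -0.22 to 0.48, leaves room for a modest difference in either direction.

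Hsp90aa1, the inducible HSP90, was expressed at a lower level. It was at 424, 591 and 571 TPM in RT1 to RT3, against 382, 464, 269 and 394 TPM in WT1 to WT4, and the groups overlapped because RT1 was below WT2. Its log2 fold change was 0.71 ± 0.58 in the limma test on RPKM (adjusted p = 0.780) and 0.22 ± 0.20 on the reads (limma voom adjusted p = 0.491, 95% interval -0.24 to 0.67). The ratio of Hsp90aa1 to Hsp90ab1 within a library, which does not depend on library scaling, was 0.212, 0.237 and 0.179 in RT1 to RT3, against 0.182, 0.202, 0.141 and 0.199 in WT1 to WT4. These ratios overlapped.

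Hsph1, an HSP110 that exchanges nucleotide on HSP70, was even across the RT libraries and uneven across WT. It was at 101, 88.9 and 86.7 TPM in RT1 to RT3, against 59.0, 96.8, 10.2 and 19.4 TPM in WT1 to WT4. WT2 exceeded both shallow RT libraries, and the shallow WT values rested on 3 and 6 reads, against 25 each in RT2 and RT3. Hsph1 thus also reached the read minimum only through RT2 and RT3. The mean was 92.3 ± 7.81 TPM in RT (SD, n = 3) and 46.3 ± 39.8 TPM in WT (SD, n = 4). The log2 fold change was 1.57 ± 0.52 in the limma test on RPKM (adjusted p = 0.398). On the reads it was 0.53 ± 0.30 (limma voom adjusted p = 0.270, 95% interval -0.16 to 1.21). Without WT2 it was 0.93 and passed (limma voom adjusted p = 0.0130). It was 0.24 without WT1 (limma voom adjusted p = 0.598) and 2.45 ± 1.17 without RT1 (limma voom adjusted p = 0.638).

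The J-domain genes Dnajb1 and Dnaja1, whose proteins bring clients to HSP70 and start its ATP hydrolysis, were higher on average in RT without passing a test on all libraries. Dnajb1 was at 251, 290.2 and 204 TPM in RT1 to RT3, against 196, 222, 84.6 and 125 TPM in WT1 to WT4, overlapping where RT3 was below WT2. Its log2 fold change was 0.95 ± 0.46 in the limma test on RPKM (adjusted p = 0.617) and 0.37 ± 0.19 on the reads (limma voom adjusted p = 0.229, 95% interval -0.07 to 0.81). Dnaja1 was at 137, 174 and 202 TPM in RT1 to RT3, against 116, 155, 77.1 and 87.1 TPM in WT1 to WT4, where RT1 lay below WT2. Its log2 fold change was 0.88 ± 0.51 in the limma test on RPKM (adjusted p = 0.670) and 0.27 ± 0.23 on the reads (limma voom adjusted p = 0.470, 95% interval -0.27 to 0.80). The ratio of Dnajb1 to Dnaja1 was 1.83, 1.67 and 1.01 in RT1 to RT3, against 1.68, 1.43, 1.10 and 1.43 in WT1 to WT4, so the lowest ratio of all was in an RT library. In RPM, every RT library lay above every WT library for 3 of 10 members (Hspa1a, Hsph1 and Dnajb1) and for 5.73% of 5885 genes.

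Hspd1 and Hspe1 encode HSP60 and its lid HSP10 in the mitochondrial matrix, and their groups overlapped widely. Hspd1 was at 144, 264 and 286 TPM in RT1 to RT3, against 134, 188, 205 and 160.0 TPM in WT1 to WT4. Hspe1 was at 104, 333 and 205 TPM in RT1 to RT3, against 86.0, 103, 167 and 223 TPM in WT1 to WT4. The RT1 values of both genes were the lowest in RT. The log2 fold change of Hspd1 was 0.59 ± 0.67 in the limma test on RPKM (adjusted p = 0.842) and -0.03 ± 0.22 on the reads (limma voom adjusted p = 0.931). That of Hspe1 was 0.71 ± 0.85 in the limma test on RPKM (adjusted p = 0.851) and 0.16 ± 0.20 on the reads (limma voom adjusted p = 0.620). The 95% intervals on the reads were -0.54 to 0.48 for Hspd1 and -0.29 to 0.61 for Hspe1, and the shallow Hspe1 values rested on 10 to 19 reads. The kit named in the labels does not mark strand, so reads from the overlapping ends of the 2 genes cannot be told apart.

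Both the total and the make-up of the chaperone transcripts differed between libraries. The 10 genes together had 9617, 10513 and 8460 TPM in RT1 to RT3, against 6083, 7788, 4419 and 4864 TPM in WT1 to WT4. Hspa1a and Hspa1b supplied 46.3%, 39.5% and 13.0% of that sum in RT1 to RT3, against 12.6%, 21.6%, 2.30% and 3.27% in WT1 to WT4. Every RT sum was above every WT sum. Without the pair, the sum of the other members was lower in RT1 than in WT1 and WT2, and higher in RT2 and RT3 than in WT3 and WT4. The share of the pair in RT1 and RT2 was above that in every WT library. In RT3 it was close to that in WT1 and under that in WT2, both deep. It was above those in WT3 and WT4, which are shallow like RT3.

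**Figure D2:**
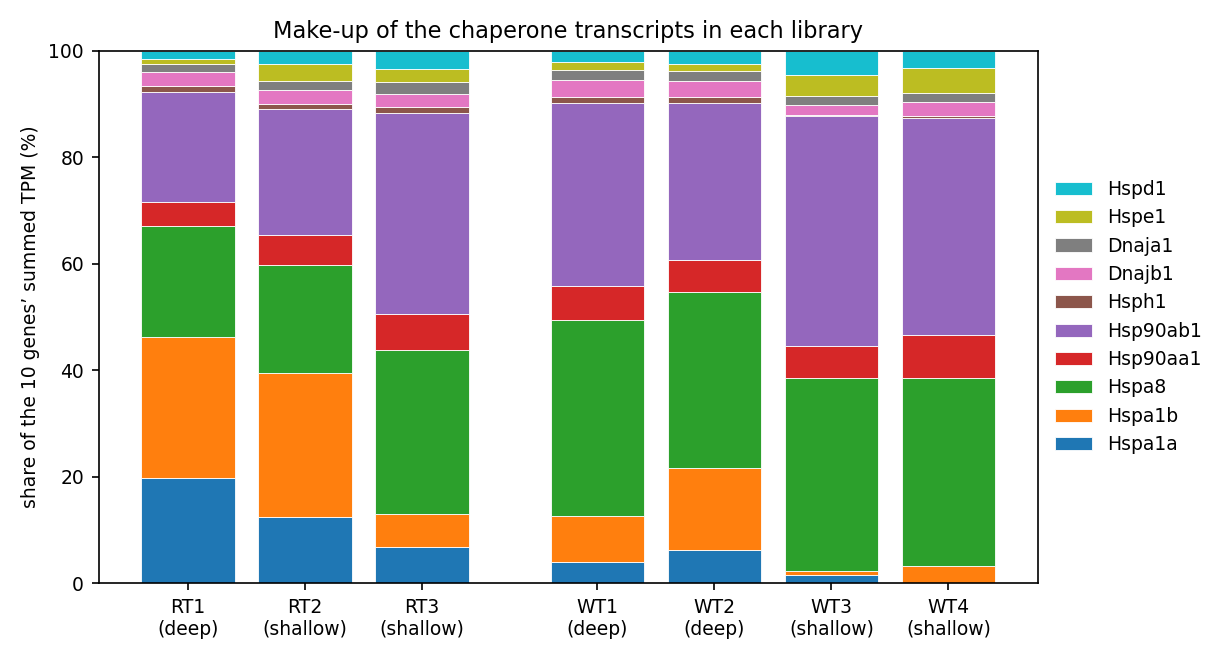
Share of each of the 10 genes in their summed TPM, in %, 1 bar per library with RT left of WT. Hspa1a and Hspa1b together make up 46.3% in RT1 and 39.5% in RT2, and 13.0% in RT3, against 2.30% to 21.6% in the WT libraries.

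Relative to constitutive Hspa8, the summed pair stood at 2.22, 1.96 and 0.421 in RT1 to RT3, against 0.342, 0.651, 0.0636 and 0.0928 in WT1 to WT4. RT3 lay between WT1 and WT2 on this ratio. Within the deep set the RT ratio was above both WT ratios, and within the shallow set both RT ratios were above both WT ratios. For HSP60 and its lid, the ratio of Hspe1 to Hspd1 was 0.723, 1.26 and 0.717 in RT1 to RT3, against 0.641, 0.549, 0.815 and 1.39 in WT1 to WT4, with overlapping groups.

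**Figure D3:**
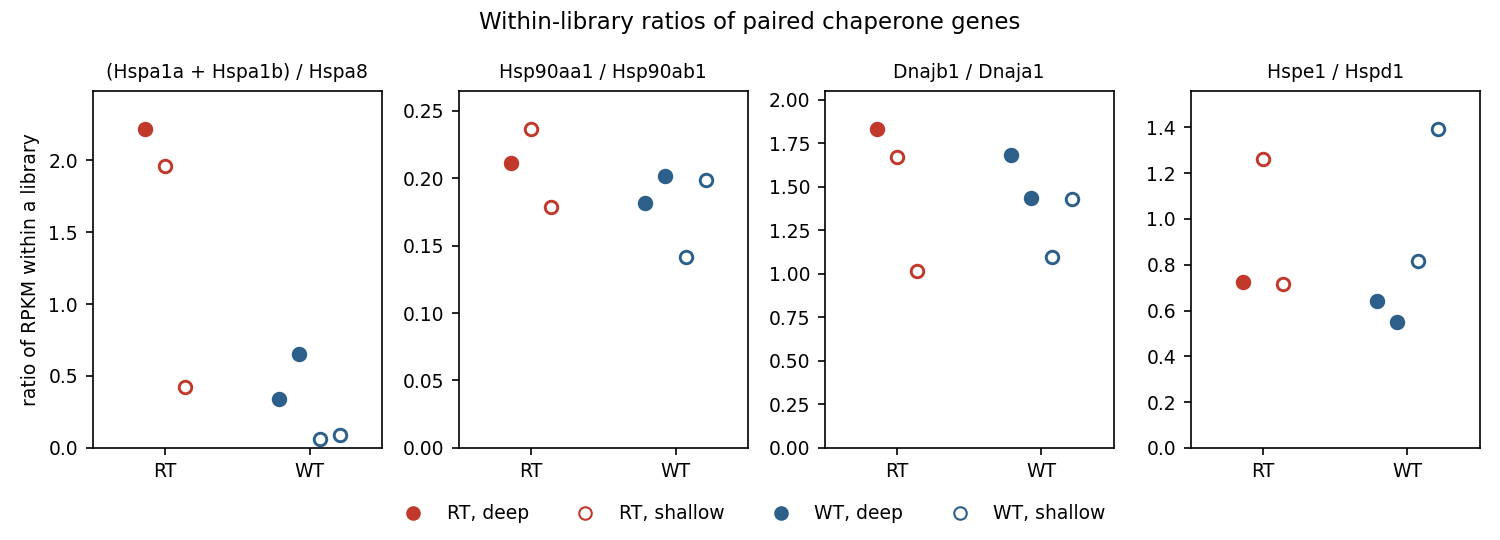
Ratio of RPKM values within a library for 4 combinations of chaperone genes, RT left of WT, filled points for deep and open points for shallow libraries. The ratio of Hspa1a and Hspa1b to Hspa8 runs from 0.421 to 2.22 in RT and from 0.0636 to 0.651 in WT, with RT3 below WT2, and the other ratios overlap between the groups as well, although RT1 is above both deep WT libraries in each.

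Because the sets differ so much in depth, the genotypes were also compared within each. On the recovered reads Hspa1a and Hspa1b were past the threshold in each set, and Hsph1 and Dnaja1 in the shallow one, while the limma test on RPKM called 0 members in either set. Its adjusted p in the deep and the shallow set was 0.135 and 0.258 for Hspa1a and 0.310 and 0.273 for Hspa1b. The deep set holds a single RT mouse, RT1, so no spread within RT is measured there, and the fit assumes that RT1 varies like WT1 and WT2. On that assumption 2 of 10 members were past the threshold on the reads, beside 5.77% of 5857 genes higher. These were Hspa1a, at 2.45 ± 0.39 (limma voom adjusted p = 0.00389), and Hspa1b, at 1.70 ± 0.43 (limma voom adjusted p = 0.0366). Hsph1 was at 0.40, Dnajb1 at 0.26, and the other 6 lay between -0.26 for Hspa8 and 0.12 for Hspe1. In the shallow libraries, RT2 and RT3 against WT3 and WT4, 4 of 10 members rose on the reads, beside 2.99% of 5885 genes. Hspa1a rose by 5.68 ± 1.05 (limma voom adjusted p = 0.000137) and Hspa1b by 3.82 ± 0.59 (limma voom adjusted p = 3.93e-06). Hsph1 rose by 2.45 ± 0.53 (limma voom adjusted p = 0.00127) and Dnaja1 by 1.13 ± 0.30 (limma voom adjusted p = 0.0113). With 2 libraries per genotype, these errors come mostly from variance pooled over genes. Hspa1a, with 8 and 0 reads in WT3 and WT4, and Hsph1, with 3 and 6, reached the read minimum of 10 only through RT2 and RT3. Their shallow values are therefore no independent support for a difference. The fit of all libraries but RT1 rests on the same genotype contrast as the shallow fit and called 0 members. There Hspa1a was at 5.65 ± 2.44 (limma voom adjusted p = 0.602) and Hspa1b at 3.82 ± 2.10 (limma voom adjusted p = 0.706). Dnajb1, at 1.15 ± 0.39, did not pass (limma voom adjusted p = 0.0579), and the median over the 10 members was 0.95 in the shallow set and 0.07 in the deep set, beside -0.07 and -0.03 over all genes. The interaction of genotype and set passed for 35 of 5885 genes and for 0 members, with limma voom adjusted p-values of 0.413 to 0.954, so a difference between the sets was not shown for any of the 10. Its log2 estimates, shallow minus deep, were 2.04 ± 1.14 for Hsph1, 3.20 ± 2.05 for Hspa1a and 2.15 ± 2.24 for Hspa1b. Relative to their errors, those of Hspa8 (0.73 ± 0.25) and Hsp90ab1 (0.63 ± 0.24) were the largest, and no member had a negative one. In the shallow set alone Hspa8 was at 0.46 ± 0.17 and Hsp90ab1 at 0.50 ± 0.18 without passing (limma voom adjusted p = 0.0802 and 0.0753).

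**Figure D4:**
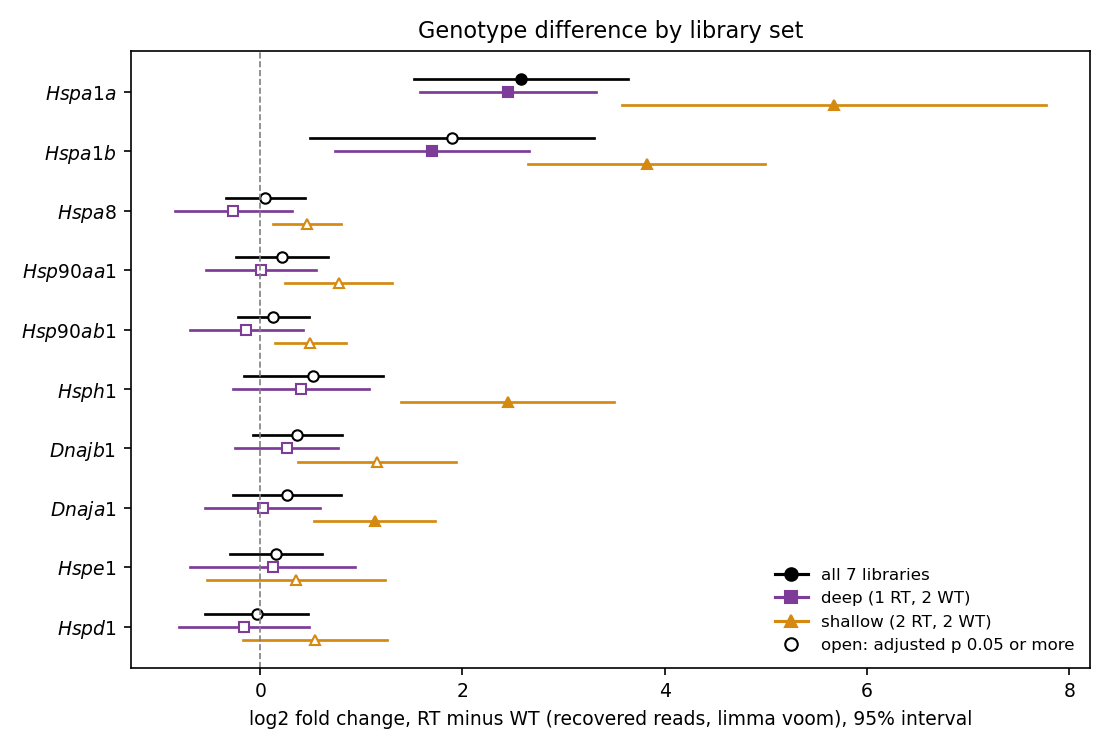
Log2 fold change, RT minus WT, of the 10 chaperones from limma voom on recovered reads, with 95% intervals, in all 7 libraries and in the deep and shallow sets alone; filled symbols passed an adjusted p of 0.05. Hspa1a passed in all 3 fits, Hspa1b in both sets alone, and Hsph1 and Dnaja1 in the shallow set.

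Within each set, every RT library exceeded every WT library in TPM for 4 of 10 members (Hspa1a, Hspa1b, Hsph1 and Dnajb1) and for 11.4% of 9605 genes. Markers of other cells moved along with the sets. In the shallow libraries the 7 B cell markers summed to 72.5 and 71.7 RPM in RT2 and RT3, against 1151 and 1305 in WT3 and WT4. The 6 plasma cell markers summed to 269 and 260.0 RPM in RT2 and RT3, against 1550.3 and 1730.2 in WT3 and WT4, and Cd79a, a signalling chain of the B cell receptor, was at 51.8 and 8.97 RPM in RT2 and RT3, against 199.7 and 268 in WT3 and WT4. Dendritic cell markers (7 genes) were at 104 and 89.7 RPM in RT2 and RT3, against 504 and 499.6 in WT3 and WT4. Erythroid markers (6 genes) were at 404 and 170.4 RPM in RT2 and RT3, against 1759.5 and 1730.2 in WT3 and WT4. In the deep libraries the 8 myeloid markers found in the table, of 9 listed, summed to 2339.8 RPM in RT1, against 773 and 498 in WT1 and WT2. In the shallow libraries this sum was lower in RT, at 279.7 and 394.5 RPM in RT2 and RT3, against 1084.3 and 1045.5 in WT3 and WT4. The 8 CD4 T cell markers summed to 4066 to 8328 RPM in RT and 4062 to 4813 in WT, and NK cell markers to 13.9 to 186 in RT and 29.0 to 64.8 in WT. Their part in the chaperone results was not tested.

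The 108 other proteostasis genes listed were called higher at a share close to that of all genes in the same test. On the recovered reads 75 could be tested, and 8 were higher (10.7%, beside 9.48% of all genes) and 1 lower (1.33%, beside 8.22%), with their median at -0.02 on the log2 scale. The limma test on RPKM covered 92 of them and called 0, with a median of 0.35. Positive estimates numbered 72 of 92 on RPKM and 36 of 75 on the reads. Counts on the reads fell to 0 higher and 0 lower without RT1, to 2 higher without RT3, WT3 or WT4, each left out in turn, and to 5 higher without RT2. Without WT1 they were 10 higher and 2 lower. Of 2 heat shock factors tested, 0 passed, and Hsf1, the master regulator of the family, was at -0.30 ± 0.16 (limma voom adjusted p = 0.240). Among 3 HSP70 and HSP110 relatives 0 passed, with Hspa14 at -0.37 ± 0.20 (limma voom adjusted p = 0.236).

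In the endoplasmic reticulum 3 of 17 chaperone genes rose (17.6%, beside 9.48% of all genes) and 1 fell (5.88%, beside 8.22%), with a median log2 value of 0.28. With so few genes these counts are not set apart from the background. P4hb, a protein disulfide isomerase, was at 359, 343 and 511 TPM in RT1 to RT3, against 238, 231, 267 and 238 TPM in WT1 to WT4, with every RT library above every WT library. It rose by 0.63 ± 0.13 (limma voom adjusted p = 0.0135) and lost the call without RT1, at 0.69 (limma voom adjusted p = 0.607). Calr, the lectin chaperone calreticulin, was at 781, 753 and 892 TPM in RT1 to RT3, against 592, 585, 505 and 506 TPM in WT1 to WT4, and rose by 0.48 ± 0.11 (limma voom adjusted p = 0.0223). Its groups did not overlap either. Such separation in TPM held for 4.6% of 9605 genes, and P4hb and Calr were named for their small p. Hspa5, the HSP70 of that compartment, was at 594, 941 and 1025 TPM in RT1 to RT3, against 469, 441, 763 and 699.9 TPM in WT1 to WT4, and rose by 0.38 ± 0.10 (limma voom adjusted p = 0.0299). Dnajc3, a J-domain inhibitor of the kinase PERK that was chosen after its value was seen, was lower, by -0.52 ± 0.15 (limma voom adjusted p = 0.0452). With RT1, RT3, WT3 or WT4 left out in turn the calls of Calr, Hspa5 and Dnajc3 were all lost, with Calr at 0.45 to 0.65, Hspa5 at 0.37 to 0.40 and Dnajc3 between -0.89 and -0.49; Dnajc3 was also uncalled without RT2 and without WT1. Plasma cells, whose markers are given above, also express these genes strongly, and the plasma cell sum was higher in RT1 (463 RPM) than in WT1 and WT2 (126 and 115 RPM) but lower in the shallow RT libraries. Its part in these values was not tested.

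The remaining lists gave 0 to 2 calls each, beside 9.48% of all genes higher, and none is set apart from that share by such counts. Of 13 J-domain genes 2 rose, Dnajb2 by 0.72 ± 0.16 (limma voom adjusted p = 0.0211) and Dnajc13 by 0.55 ± 0.16 (limma voom adjusted p = 0.0489), and Dnajc13 was at -0.18 in the shallow set. Of 18 co-chaperones of HSP70 and HSP90, Fkbp5, an immunophilin that binds HSP90 in steroid receptor complexes, rose by 1.03 ± 0.28 (limma voom adjusted p = 0.0388). Of 10 mitochondrial genes, Clpp, the matrix protease subunit, rose by 1.10 ± 0.30 (limma voom adjusted p = 0.0389), at 0.28 in the shallow set. Pfdn2, 1 of 4 prefoldin subunits tested, rose by 0.71 ± 0.20 (limma voom adjusted p = 0.0456), while 0 of 8 TRiC chaperonin subunits passed (Cct3 at -0.44 ± 0.18, limma voom adjusted p = 0.129). Without RT1 all of these calls were lost, with Fkbp5 at 1.65, Clpp at 0.33, Pfdn2 at 0.93, Dnajb2 at 0.71 and Dnajc13 at -0.18. Without RT2, RT3, WT3 or WT4 Fkbp5, Clpp and Pfdn2 were also uncalled, Fkbp5 was at 1.44 without WT1 and 0.65 without WT2, Clpp was at 0.74 without WT1, and Pfdn2 was uncalled without WT2. Dnajc13 was uncalled without RT3, WT2, WT3 or WT4.

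The small heat shock proteins, ATP-independent holders of unfolded protein, were almost unread, and 0 of 9 reached the level for testing. Hspb1 (HSP27 in human) had 133 reads in RT1, against 22 and 11 in WT1 and WT2, and 0 in the shallow libraries of either genotype. Hspb2, Hspb3, Hspb7, Hspb8 and Cryaa were listed at 0 in all 7 libraries.

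Immediate early genes, which cells switch on within minutes of a stimulus, were read beside the chaperones. The 14 genes listed summed to 6806, 8400 and 6806 RPM in RT1 to RT3, against 4831, 4999, 10329 and 9308 RPM in WT1 to WT4. RT1 was thus above the deep WT libraries, as for Hspa1a, while RT2 and RT3 were below the shallow ones, where Hspa1a was higher in RT. Of 12 tested on the reads 2 rose, Fosl2 (an AP-1 subunit) by 1.14 ± 0.22 (limma voom adjusted p = 0.0112) and Dusp1 (a MAP kinase phosphatase) by 1.27 ± 0.25 (limma voom adjusted p = 0.0117). Both lost the call without RT1, with Fosl2 at 1.43 and Dusp1 at 0.59. Fosl2 had 1 and 9 reads in RT2 and RT3, against 1 and 1 in WT3 and WT4, so it reached the read minimum through RT3 and its shallow value rests on that library. Their part in the chaperone values was not tested.

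Gnl1, H2afv, the pseudogene Pcna-ps2, Gpx4 and Tmem134 had the profiles most like the mean of the 10 chaperones among 3528 genes compared. Their Pearson r over the 7 libraries, after centring log2(RPKM + 1) within each set, was 0.998, 0.996, 0.992, 0.991 and 0.990. The libraries share depth within a set and the genes were ranked out of many, so these values near 1 only describe these 7 libraries. The members were not scaled before averaging, so Hspa1a and Hspa1b, with the largest differences, weighed most in the mean. Gpx4, a peroxidase that repairs lipid peroxides, was at 264, 569 and 497 TPM in RT1 to RT3, against 182, 226, 129 and 136 TPM in WT1 to WT4. H2afv, a histone H2A variant gene, was at 100.3, 127 and 108 TPM in RT1 to RT3, against 78.8, 92.0, 45.3 and 43.2 TPM in WT1 to WT4.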

How the data were processed

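The deposited table held RPKM values made by the authors for 19589 genes in 7 libraries. The build named is mm10, per the submitters' processing notes. Aligner, counter and annotation were not given in the sources used here. Each library used 150 ng of RNA, per the labels' protocols. All 10 members, and 19432 symbols in all, were matched to GENCODE M21. The members and gene lists were chosen with earlier results of these data known.

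RPKM times gene length and library total gave whole reads within 0.01 reads for 78.9% to 83.8% of values under 100 reads with GENCODE lengths. With lengths refitted within 0.003 reads, 13032 of 13859 genes above 0 had a single length and 827 needed separate lengths in deep and shallow libraries. Gene reads recovered numbered 8878397 to 11044005 in deep and 96544 to 111524 in shallow libraries, where 3 reads equal 0.272 to 0.338 RPM (deep) and 26.9 to 31.1 RPM (shallow). Intervals and such limits cover counting error only.

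The test planned as the main one was limma 3.58.1 in R 4.3.3 (trended prior variance) on log2(RPKM + 1), keeping genes that reached 1 RPKM in 3 or more libraries; its fold changes understate low genes. The recovered reads were fitted with limma voom with a term for library set, keeping genes whose shallow libraries together held at least 10 reads. Hspa1a and Hsph1 met this minimum only through RT2 and RT3. P-values are two-sided and Benjamini-Hochberg adjusted over all genes tested at a threshold of 0.05. They rest on the spread between the mice sampled and on variance pooled over genes. The pooled part dominates in the read fits of a single library set. Both fits were tested on simulated counts with 200 changed genes.

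Text names all members. Of each other proteostasis list it names up to 3 genes with the smallest p among those passing, or else the gene with the smallest p. It also names the 5 genes with the most similar profile, at a mean of 10 RPKM or more, leaving out predicted genes and receptor segments. Replicates were compared within each set. In the shallow set the chi-square per degree of freedom was 1.31 over 1148 genes for WT3 and WT4, against 4.20 over 1094 genes for RT2 and RT3. For the deep WT1 and WT2 it was 35.8 over 10832 genes, but this measure grows with depth and does not rank pairs across sets. The Pearson r of log2(RPKM + 1) was 0.893, 0.884 and 0.973 in that order. WT3 and WT4 differed by more than sampling noise (chi-square p = 1.03e-11), which does not show that they are separate mice. Both were kept as the separate samples that the labels list.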

Additional observations from a re-analysis of the deposited data

How the results depend on the processing

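Among the RPKM fits 0 chaperones were called under every alternative run, and among the read fits 0 were called lower. Chaperones called higher on the reads numbered 1, against 2 in the deep libraries alone, 4 in the shallow ones, 0 with no term for library set (Hspa1a at 2.22, limma voom adjusted p = 0.0755) and 0 to 3 with 1 library left out. Genes called higher by the RPKM test numbered 4, against 2 in deep and 11 in shallow libraries alone, 7 on the TPM scale, 21 with a term for library set, 0 without the filter, 0 at a pseudocount of 0.1, and 0 to 16 with 1 library left out. Genes called lower numbered 1, against 0, 75, 5, 5, 0 and 0 in the same order, 2 on the TPM scale with a set term, and 0 to 5 with 1 library left out. On the reads 558 genes were higher, against 221 at a minimum of 50 reads, 338 in deep and 176 in shallow libraries alone, 311 with no set term and 0 to 762 with 1 library left out. There were 484 lower, against 231, 173, 230 and 211 in that order, 322 with WT3 and WT4 summed, and 0 to 655 with 1 library left out. The sign of the log2 fold change turned in the deep libraries for Hsp90ab1 (-0.11 on RPKM, -0.14 on reads), Hspa8 (-0.24 and -0.26) and Hspd1 on RPKM (-0.12). On the reads it also turned for Hspa8 with no filter (-0.091), without RT2 (-0.02) and without RT3, and for Hspd1 in the shallow libraries (0.54) and with no set term (0.23). With 1 library left out, Hspa8 ran from -0.02 (-0.023 without RT3) to 0.46 and Hspd1 from -0.15 to 0.54. The cause was not tested. Whether the replicate numbers pair the mice could not be decided. Deviations of same-numbered libraries from their genotype mean correlated at 0.432, -0.179 and 0.184. These deviations were not centred within library set, so they follow depth: RT1 correlated at 0.342 with the deep WT2 and at -0.314 with the shallow WT3. With the numbers as a replicate block the RPKM test called 0 genes higher and 0 lower, and the reads called 3 chaperones higher (Hspa1a, Hspa1b and Hsph1), with Hspd1 at 0.17. Summing Hspa1a and Hspa1b, and the TPM scale with a set term, were chosen after seeing the data. Of the single-gene values under the alternatives, 155 of the RPKM fits and 137 of the read fits kept their direction and side of the threshold, 9 of the read fits passed it newly and 2 no longer passed. In the shallow libraries 1 read is 4.11 to 4.73 RPKM of a 2-kb gene, so differences in Hsph1 and Hspe1 there rest on a few reads. The WT3 and WT4 values of the HSP70 pair do so too, with 8 and 0 reads for Hspa1a and 4 and 19 for Hspa1b.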
